A study of Mus musculus with 6 samples.

Results

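The genes examined are those of the urea cycle and of hepatic glutamine metabolism, chosen by name: the cycle enzymes Nags, Cps1, Otc, Ass1, Asl and Arg1, the glutaminase Gls2, the glutamine synthetase Glul and the ornithine aminotransferase Oat. Of these 9 genes, 7 were measured among 12393 genes, with 10 probe sets in all. Ass1 was read only by a probe set that carries another gene symbol as well, and Gls2 had no annotated probe set, so both were not analysed here. Livers of 3 mice injected with an adenovirus that carries TFEB, a transcription factor known for its lysosomal target genes, were compared with livers of 3 mice that were not injected. All 6 mice were wild type on a C57 background and 1 month old, with 1 Affymetrix array per liver. The labels name no liver that received an empty vector, so injection, vector and TFEB cannot be told apart, and they do not give the promoter that drives TFEB.

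Hepatocytes dispose of ammonia in 2 zones of the lobule. Around the portal vein, glutaminase releases ammonia and the urea cycle binds it: N-acetylglutamate, made by NAGS, is the obligate activator of carbamoyl phosphate synthetase, the first enzyme of the cycle, and arginase closes the cycle by releasing urea. The ammonia that escapes is bound to glutamate around the central vein by glutamine synthetase, in cells that also hold ornithine aminotransferase.

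Injected livers had less transcript of Nags, whose product switches on the entry of the cycle, and of Arg1, which closes it. Nags fell 1.72-fold and Arg1 1.64-fold. Cps1, Otc and Asl did not pass the test, and neither did the pericentral Glul and Oat. Thus 2 of 7 genes were lower and 0 higher (limma, adjusted p under 0.05 over all genes). Of all genes 13.9% were lower, 14.2% higher and 28.1% called in either direction. The share of called genes was therefore near that of all genes. At an unadjusted p under 0.05 (limma) there were 3 genes of 7, all of them lower. At least 5014 of the 12393 genes were under that unadjusted threshold too, so this count does not set the 7 genes apart. How many of those genes were lower was not counted. The groups did not overlap in 3 of the 7 genes, all lower in injected livers, where 26.1% of all genes were apart in this direction, 20.1% in the other and 46.2% in either. A fall as large as that of Arg1, with a call, was seen in 255 genes (2.06%). The median difference of the 7 genes was -0.07 on the log2 scale, beside -0.05 over all genes.

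The promoter of Nags, the gene with the smallest p of the 7, is shown beside that of Glul, the pericentral gene, as RefSeq gives the 250 bases before the annotated start in GRCm38.p6. The Nags bases lie at chr11:102145263-102145512 and the Glul bases at chr1:153899679-153899928, both on the plus strand. Capitals mark the GC box, GGGCGG or CCGCCC on the strand shown.
Nags: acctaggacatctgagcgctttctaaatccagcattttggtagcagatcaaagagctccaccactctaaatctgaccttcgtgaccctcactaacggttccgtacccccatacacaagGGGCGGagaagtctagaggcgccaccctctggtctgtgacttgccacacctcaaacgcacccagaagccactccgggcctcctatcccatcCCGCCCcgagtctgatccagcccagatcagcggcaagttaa
Glul: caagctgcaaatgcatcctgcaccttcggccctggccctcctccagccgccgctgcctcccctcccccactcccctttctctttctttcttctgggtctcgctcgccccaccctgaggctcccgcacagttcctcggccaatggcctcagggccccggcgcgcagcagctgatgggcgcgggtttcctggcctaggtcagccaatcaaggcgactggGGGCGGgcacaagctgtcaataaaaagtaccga

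Promoters of 4 of the 7 genes were found in the RefSeq table, those of Nags, Otc, Glul and Oat. The E-box CACGTG, the core of the sites that TFEB is known to bind, was in 0 of these 4 windows, where 6.02% of 32851 windows of the same length held it. The cyclic AMP response element TGACGTCA was in 0 of 4 and in 1.55% of all windows. Both strands were searched, and none of the 3 motifs contains another. The GC box, a site of Sp1-type factors, was in 2 of 4 and in 32.7% of all windows. Nags held it at positions -132 and -41, and Glul at -33, counted from the annotated start with the base before it as -1. A match or its absence describes these letters in this window alone.

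The tissue label held in the arrays. Albumin, encoded by Alb, read 15.06 on average in injected and 15.06 in not-injected livers on the log2 scale. Alb lay near the top of the range, where arrays can understate a difference. Its equal means therefore cannot show whether hepatocyte transcripts differed. Spike-in transcripts added during array preparation differed between the groups. Over 42 such probe sets the differences, injected minus not injected, had a median of -0.41 and spanned -0.57 to -0.06. In 41 of them the injected arrays were lower without overlap, while the median difference of all genes was -0.05. The differences of Nags (-0.78) and Arg1 (-0.71) lay below the span of the spike-ins, and those of the other 5 genes did not. That span cannot show how far array preparation moves a single liver gene. The 3′ probe set of Gapdh exceeded its 5′ probe set, a gap that depends on RNA integrity, by 0.21 ± 0.05 in injected and 0.34 ± 0.05 in not-injected livers (SD, log2, n = 3 each), while that gap of Actb was 1.38 ± 0.11 in injected and 1.36 ± 0.06 in not-injected livers. The part of array preparation and RNA integrity in the results was not tested. The only probe set of Tfeb differed by 0.05 ± 0.10 (SE, limma adjusted p = 0.716; -0.051 without injected replicate 2), and the labels do not say whether it can detect the transgene.

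**Figure D1:**
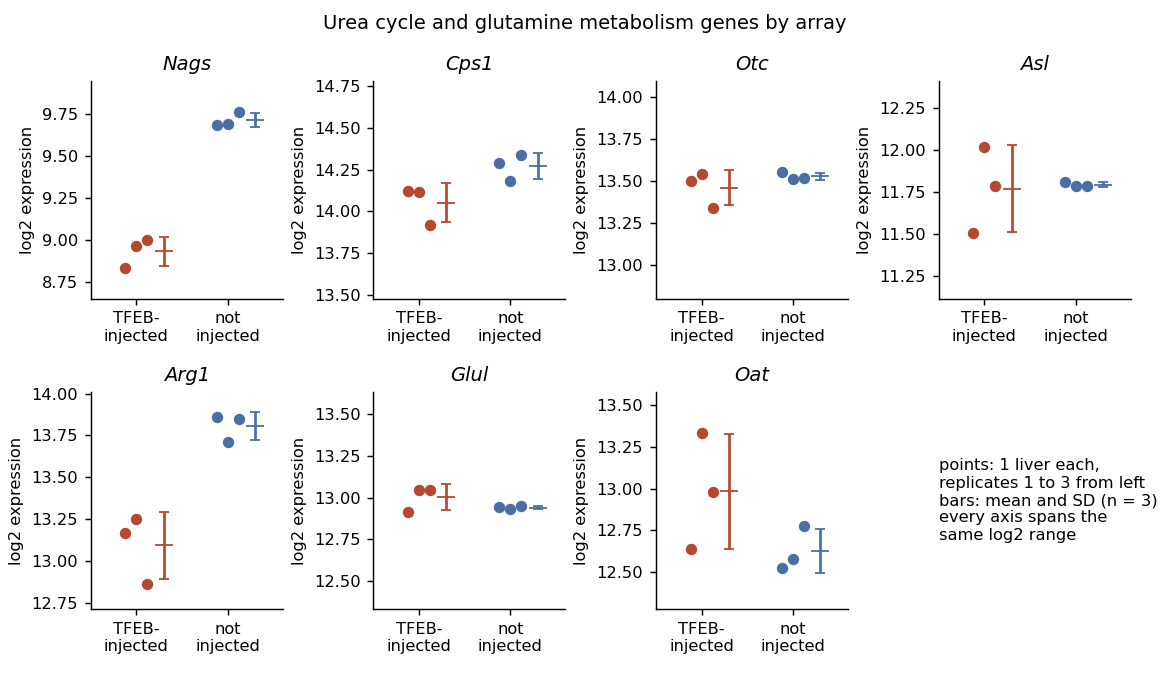
Log2 expression of the 7 measured genes in each liver, TFEB-injected left and not injected right, with the mean and SD of 3 arrays per group. Every vertical axis spans the same log2 range; the groups stood apart in Nags, Arg1 and, by a small margin, Cps1, while the injected livers were spread widely in Asl and Oat.

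The entry to the cycle was read through Nags and Cps1. Nags encodes the mitochondrial synthase of N-acetylglutamate. Its log2 expression was 8.83, 8.96 and 8.998 in the 3 injected livers, against 9.69, 9.69 and 9.76 in the livers that were not injected. All injected livers lay below all others, by a gap larger than the spread within either group. The means were 8.93 ± 0.09 in injected and 9.71 ± 0.04 in not-injected livers (SD, n = 3 each), a difference of -0.78 ± 0.07 (SE, limma adjusted p = 0.000428), and 176 of the 12393 genes had a smaller p. The 95% interval of the difference was -0.94 to -0.62. The call held under each of 15 alternatives (adjusted p 0.000143 to 0.0117).

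Cps1, the mitochondrial enzyme that NAGS activates, read 14.12, 14.12 and 13.92 in injected livers, against 14.29, 14.18 and 14.34 in not-injected livers. The groups did not overlap, but the gap between them was smaller than the spread within the injected group. The difference was -0.22 ± 0.08 (SE, limma adjusted p = 0.0866). Its 95% interval, -0.41 to -0.03, reached neither the difference of Nags nor that of Arg1. It read -0.15 without injected replicate 3 (adjusted p = 0.227) and passed narrowly with array weights (adjusted p = 0.0497). The most abundant probe set of every array read 15.1 or more, so Cps1 lay near the top of the range, where arrays can understate a difference.

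The middle of the cycle held 2 measured enzymes, Otc and Asl. Otc, the X-linked transcarbamylase that makes citrulline in mitochondria, was read by 3 probe sets. The brightest gave 13.50, 13.54 and 13.34 in injected livers, against 13.55, 13.51 and 13.52 in not-injected livers, and the groups overlapped. The difference was -0.07 ± 0.07 (SE, limma adjusted p = 0.525). The second brightest differed by -0.13 ± 0.09 (adjusted p = 0.315). The dimmest gave 8.16, 8.06 and 7.72 in injected livers, against 8.21, 8.21 and 8.48 in not-injected livers, a difference of -0.32 ± 0.13 (adjusted p = 0.108) between groups that did not overlap. All 3 probe sets of Otc pointed down, and none of them passed in limma over all probe sets (1 of them at an unadjusted p under 0.05).

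Asl, the cytosolic lyase that splits argininosuccinate into arginine and fumarate, read 11.50, 12.02 and 11.78 in injected livers, against 11.81, 11.79 and 11.78 in not-injected livers. Injected replicate 1 lay below all other livers and replicate 2 above them, and the not-injected livers were nearly equal. The difference was -0.02 ± 0.12 (SE, limma adjusted p = 0.900), and its sign turned without injected replicate 1 (0.11, adjusted p = 0.455). The interval of -0.31 to 0.26 did not reach the differences of Nags and Arg1. The SD of Asl was 0.26 among injected and 0.01 among not-injected livers. A wider spread among injected livers was seen in all 7 genes and in 60.2% of all genes.

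Arg1 encodes the cytosolic liver arginase, which releases urea and returns ornithine to the cycle. It read 13.16, 13.25 and 12.86 in injected livers, against 13.86, 13.71 and 13.85 in livers that were not injected. Every injected liver was lower than every other, and replicate 3 was the lowest. The means were 13.09 ± 0.20 in injected and 13.81 ± 0.08 in not-injected livers (SD, n = 3 each), a difference of -0.71 ± 0.11 (SE, limma adjusted p = 0.00351). The 95% interval was -0.97 to -0.46. The difference was -0.60 without injected replicate 3 and -0.79 without injected replicate 2, and the call held under all 15 alternatives (adjusted p 0.000986 to 0.0409).

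The pericentral genes did not pass. Glul, which encodes the enzyme that joins ammonia to glutamate, read 12.92, 13.05 and 13.05 in injected livers, against 12.94, 12.93 and 12.95 in not-injected livers. Injected replicate 1 was the lowest of the 6 arrays and the other injected livers were the highest. The difference was 0.06 ± 0.07 (SE, limma adjusted p = 0.502) with an interval of -0.09 to 0.21. The dimmer of its probe sets pointed the other way, at -0.16 ± 0.11 (adjusted p = 0.301), and read 10.77, 11.06 and 11.18 in injected livers, against 11.19, 11.20 and 11.11 in not-injected livers. The sign of Glul was therefore not settled, and the mean of both probe sets differed by -0.051 (adjusted p = 0.662).

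Oat encodes the mitochondrial aminotransferase that converts ornithine to glutamate semialdehyde and so draws ornithine away from the cycle. It read 12.64, 13.33 and 12.98 in injected livers, against 12.53, 12.58 and 12.77 in not-injected livers. Injected replicates 2 and 3 lay above all not-injected livers, while replicate 1 lay among them. The difference was 0.36 ± 0.17 (SE, limma adjusted p = 0.148), with an interval of -0.03 to 0.74. Without injected replicate 1 it was 0.53 and passed (adjusted p = 0.0384), and without injected replicate 2 it was 0.18 (adjusted p = 0.273).

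**Figure D2:**
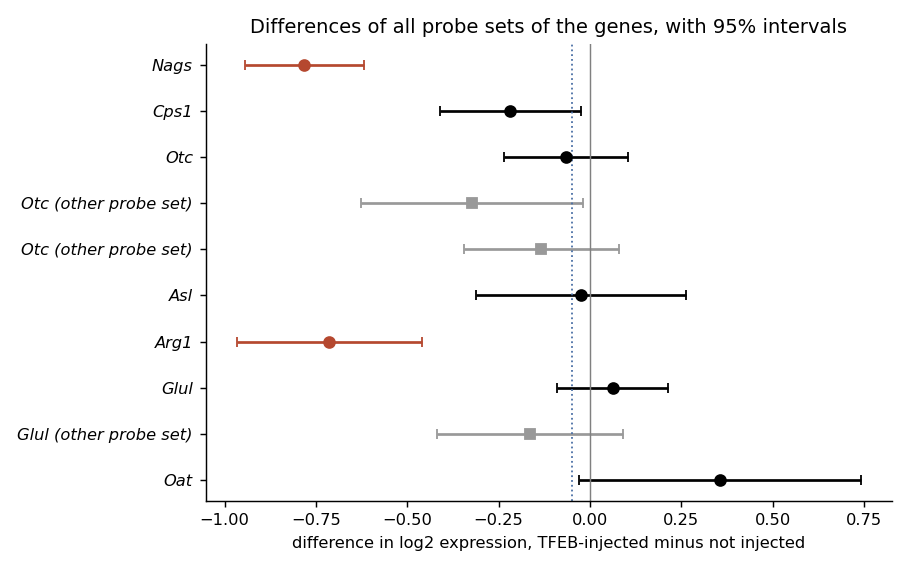
Difference in log2 expression, TFEB-injected minus not injected, for all 10 probe sets of the 7 genes with 95% intervals from limma. Circles are the probe sets with the highest mean, red where called (Nags at -0.78 and Arg1 at -0.71), grey squares the other probe sets of Otc and Glul, and the dotted line marks the median of all genes (-0.05).

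Set by zone, the differences of all 5 cycle enzymes were negative and those of Glul and Oat positive, but only those of Nags and Arg1 passed, and the other probe set of Glul was negative. The median of all genes was negative as well (-0.05). Otc (-0.07) lay close to that median, and Asl (-0.02) lay above it and changed sign without injected replicate 1. The mean of the 5 cycle enzymes, relative to the not-injected mean of each gene, was -0.40, -0.24 and -0.44 in injected livers, against 0.02, -0.05 and 0.03 in not-injected livers. Nags and Arg1 made up most of it. The mean of Glul and Oat was -0.0047, 0.40 and 0.23 in injected livers, against -0.05, -0.03 and 0.08 in not-injected livers. Injected replicate 1 had the lowest value of the injected livers for the pericentral pair, and replicate 3 the lowest for the cycle enzymes.

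The signs among the other genes of each zone were mixed. A periportal list had 24 measured genes, of which 4 were higher, 8 lower and 12 not called, where 14.2% of all genes were higher and 13.9% lower, and the 20 that are not named above had a median of -0.10. The gluconeogenic genes G6pc and Pck1 fell by 1.74 and 1.14 on the log2 scale (adjusted p = 0.000189 and 0.00169), as did Arg1, while the apolipoprotein Apoa4 rose by 1.89, the arginine transporter Slc7a2 by 0.75 and the ATP synthase subunit Atp5a1 by 0.47. A pericentral list had 27, of which 2 were higher, 15 lower and 10 not called, where 28.1% of all genes were called. The 25 apart from Glul and Oat had a median of -0.44. The neutral amino acid transporter Slc1a4 fell by 0.94, the sterol hydroxylase Cyp27a1 by 0.66 and the aryl hydrocarbon receptor Ahr by 0.48, whereas the glutamate transporter Slc1a2 rose by 0.60 and Cyp3a11 by 0.27. The call of Slc1a2 was lost without injected replicate 3 or not-injected replicate 2 or 3 (adjusted p 0.0514 to 0.0702) or without variance moderation (adjusted p = 0.0986), and that of Cyp3a11 without injected replicate 1 or 3 or not-injected replicate 2 (adjusted p 0.0530 to 0.0662). The pericentral falls numbered 7 without variance moderation. They numbered 9 after dim genes were left out, which takes called genes of this list, such as Lgr5 and Sp5, out of the test. The rises numbered 4 without injected replicate 2 or with array weights, 1 without variance moderation, 1 without injected replicate 3 or not-injected replicate 3 and 0 without not-injected replicate 2 (limma; 2 of 27 with all arrays). Glul and Oat thus lay above the median of their list, and no test sets the lists against each other. In whole liver, fewer cells of a zone and less RNA per cell cannot be told apart.

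**Figure D3:**
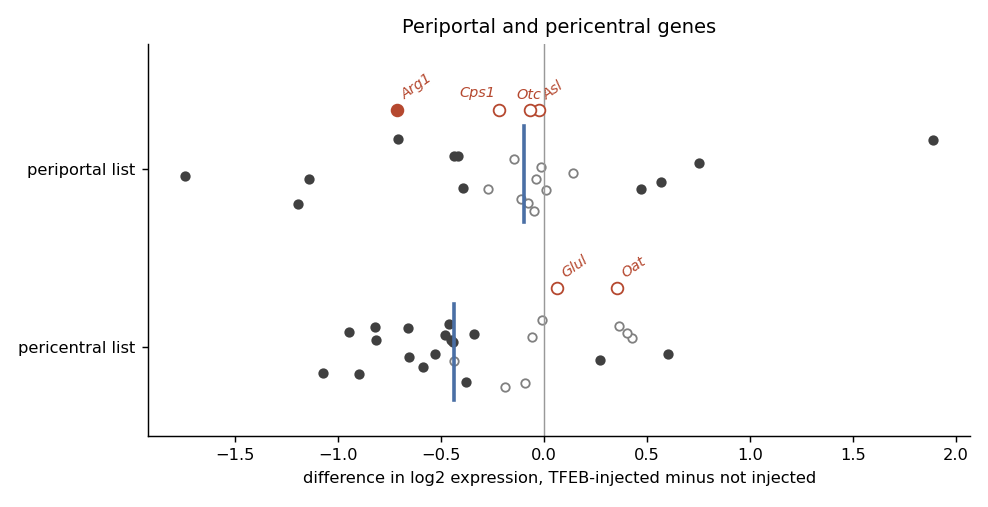
Differences in log2 expression, TFEB-injected minus not injected, of 24 periportal genes (upper) and 27 pericentral genes (lower), filled where called. The urea cycle and glutamine genes are red and set above the others of their list, and the vertical bars are the list medians (-0.10 and -0.44); Nags is in neither list.

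Of 26 measured genes listed around nitrogen and bicarbonate entry, 11 fell and 4 rose, where 13.9% of all genes fell and 14.2% rose. The other 11 did not pass, and the median was -0.19. The list is wider than that entry and also holds the channels Aqp9 and Slc14a1 and the tryptophan dioxygenase Tdo2. Hal, Ftcd and Agxt, which fell, are in the periportal list as well. Glud1, glutamate dehydrogenase, which frees ammonia in mitochondria, read 12.84, 12.69 and 12.77 in injected livers, against 13.45, 13.53 and 13.47 in not-injected livers. Its fall of 1.64-fold (-0.71 ± 0.07, SE, limma adjusted p = 0.000514) was of the size of that of Arg1, and the groups were far apart. The peroxisomal alanine-glyoxylate aminotransferase Agxt fell by 0.71 and the glycine decarboxylase Gldc by 0.46. Aspa, which splits N-acetylaspartate, rose by 0.72, the lipoamide dehydrogenase Dld by 0.51 and the oxoglutarate carrier Slc25a11 by 0.34, the last not without injected replicate 1 or 3 or not-injected replicate 3 (adjusted p 0.0510 to 0.0557). Without variance moderation none of these 3 rises passed (adjusted p = 0.0593 for Aspa, 0.0627 for Dld and 0.0573 for Slc25a11). The falls numbered 7 without injected replicate 1, 6 without injected replicate 3, 5 without not-injected replicate 2 and 4 without not-injected replicate 3. The rises numbered 2 without injected replicate 1 or 3, and without variance moderation there were 0 rises and 6 falls.

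From this list, 5 carriers and carbonic anhydrases that act beside the cycle enzymes in mitochondria were singled out after their values were seen. Of these, 3 passed, a count that the choice leaves without weight. Among other mitochondrial carriers of the list, Slc25a22 (-0.11, limma adjusted p = 0.437) and Slc25a10 (-0.08, adjusted p = 0.372) did not pass, and Slc25a11 rose. The ornithine carrier Slc25a15 differed by -0.30 ± 0.07 (SE, limma adjusted p = 0.0168), the aspartate-glutamate carrier Slc25a13 by -0.23 ± 0.07 (adjusted p = 0.0372) and the mitochondrial carbonic anhydrase Car5a by -0.95 ± 0.29 (adjusted p = 0.0465). Both paralogs were dim and did not pass: the ornithine carrier Slc25a2 differed by -0.08 ± 0.09 (adjusted p = 0.527) and the carbonic anhydrase Car5b by -0.25 ± 0.09 (adjusted p = 0.0888). Car5a read 8.55, 9.74 and 8.62 in injected livers, against 10.03, 9.82 and 9.92 in not-injected livers. Injected replicate 2 lay close to the not-injected livers. The call of Car5a held without injected replicate 2 (-1.34, adjusted p = 3.91e-05) and was lost without any other array (adjusted p 0.105 to 0.138), with the replicate number as a block (adjusted p = 0.0515) and without variance moderation (adjusted p = 0.172). That of Slc25a13 was lost without any array except injected replicate 2 (adjusted p 0.0732 to 0.111) and with the block (adjusted p = 0.0576). That of Slc25a15 was lost without injected replicate 3 or not-injected replicate 2 or 3 (adjusted p 0.0530 to 0.0678).

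At the plasma membrane 2 of 17 listed transporters of glutamine, arginine, other amino acids and ammonia rose, 1 fell and 14 did not pass. Their median was -0.10, where 28.1% of all genes were called. Slc7a2, the arginine and ornithine transporter of hepatocytes, read 10.08, 10.14 and 10.03 in injected livers, against 9.35, 9.14 and 9.50 in not-injected livers. Every injected liver was above every other, and the rise was 1.69-fold (0.75 ± 0.10, SE, limma adjusted p = 0.00193). Slc1a2 and Slc1a4, described above with the pericentral genes, were the other called transporters. Slc38a3, which moves glutamine into and out of hepatocytes and was singled out after its values were seen, differed by -0.46 ± 0.15 (adjusted p = 0.0552). It read -0.63 without injected replicate 2, which passed (adjusted p = 0.00172), and it also passed with array weights (adjusted p = 0.0066), with an intensity trend (adjusted p = 0.0458) and after dim genes were left out (adjusted p = 0.0425). Without that array 4 transporters rose and 5 fell; without not-injected replicate 1, 2 fell; and without injected replicate 3 or not-injected replicate 2 or 3, 1 rose. Over all 15 alternatives 1 to 4 rose and 1 to 5 fell. Slc7a7 (0.40, limma adjusted p = 0.0565) and Slc3a2 (0.48, adjusted p = 0.0588) lay about as near the threshold as Slc38a3, but with a rise. The groups of both did not overlap.

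Ornithine also feeds polyamine and proline metabolism. In a list around these, 1 of 19 genes was higher, 5 were lower and 13 were not called, with a median of -0.08. The share called was near the 28.1% of all genes. That list is wider and also holds Gamt and the nitric oxide synthases Nos1, Nos2 and Nos3. Sat1, which acetylates polyamines for breakdown and export, rose 2.09-fold (1.06 ± 0.11, SE, limma adjusted p = 0.000678). Odc1, ornithine decarboxylase, which opens polyamine synthesis, fell by 0.52, and the groups of both genes were apart. Gamt, of creatine synthesis, fell by 0.92 and the hydroxyproline dehydrogenase Prodh2 by 0.73. Falls numbered 3 without injected replicate 1 or 3 or not-injected replicate 2 or 3, and rises 2 without injected replicate 2. Among 10 genes that use glutamine or glutamate for nucleotides, amino sugars, asparagine and glutathione, 1 rose, 2 fell and 7 did not pass, with a median of 0.05, where 28.1% of all genes were called. The CTP synthase Ctps2 rose by 0.72, and Gclc, of glutathione synthesis, fell by 0.38. Cad, which makes carbamoyl phosphate in the cytosol for pyrimidines, fell by 0.40. The call of Cad was lost when injected replicate 1 or 1 of the not-injected arrays was left out (adjusted p 0.106 to 0.116), with the mean of its probe sets (adjusted p = 0.0836) and without variance moderation (adjusted p = 0.141), and that of Gclc without not-injected replicate 2 (adjusted p = 0.0515). In this set 0 genes fell without not-injected replicate 2 (2 of 10 with all arrays), 1 without injected replicate 1 or not-injected replicate 1 or 3, and 2 rose without injected replicate 2.

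Genes listed as regulators for the urea cycle and glutamine metabolism, Tfeb among them, were divided: 4 of 18 rose, 5 fell and 9 did not pass. Their median was -0.08, where 14.2% of all genes rose and 13.9% fell. Gcgr, the glucagon receptor, whose signal raises cycle enzymes in fasting, read 10.71, 10.64 and 10.63 in injected livers, against 11.04, 11.09 and 11.13 in not-injected livers. The groups were apart and the fall was 1.34-fold (-0.42 ± 0.06, SE, limma adjusted p = 0.00328). Cebpa, a hepatocyte factor whose loss in mice lowers Cps1, fell by 0.53 (adjusted p = 0.0152), a call lost without not-injected replicate 2 or 3 (adjusted p 0.0582 to 0.0585) or without variance moderation (adjusted p = 0.0823). The stress factor Atf4 fell by 0.60 and the CCAAT-binding subunit Nfyb by 0.43. Hnf4a, a main regulator of hepatocyte genes, differed by -0.21 ± 0.09 (adjusted p = 0.112), and by -0.27 without injected replicate 2, which passed (adjusted p = 0.0434), as it did with array weights (adjusted p = 0.0335). The coactivator gene Ppargc1a rose by 2.24, Myc by 1.87 and Cebpb by 0.35. The call of Myc was lost without variance moderation (adjusted p = 0.0622). Of the regulators 3 fell without not-injected replicate 2 or 3, and without variance moderation 2 rose and 3 fell.

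**Figure D4:**
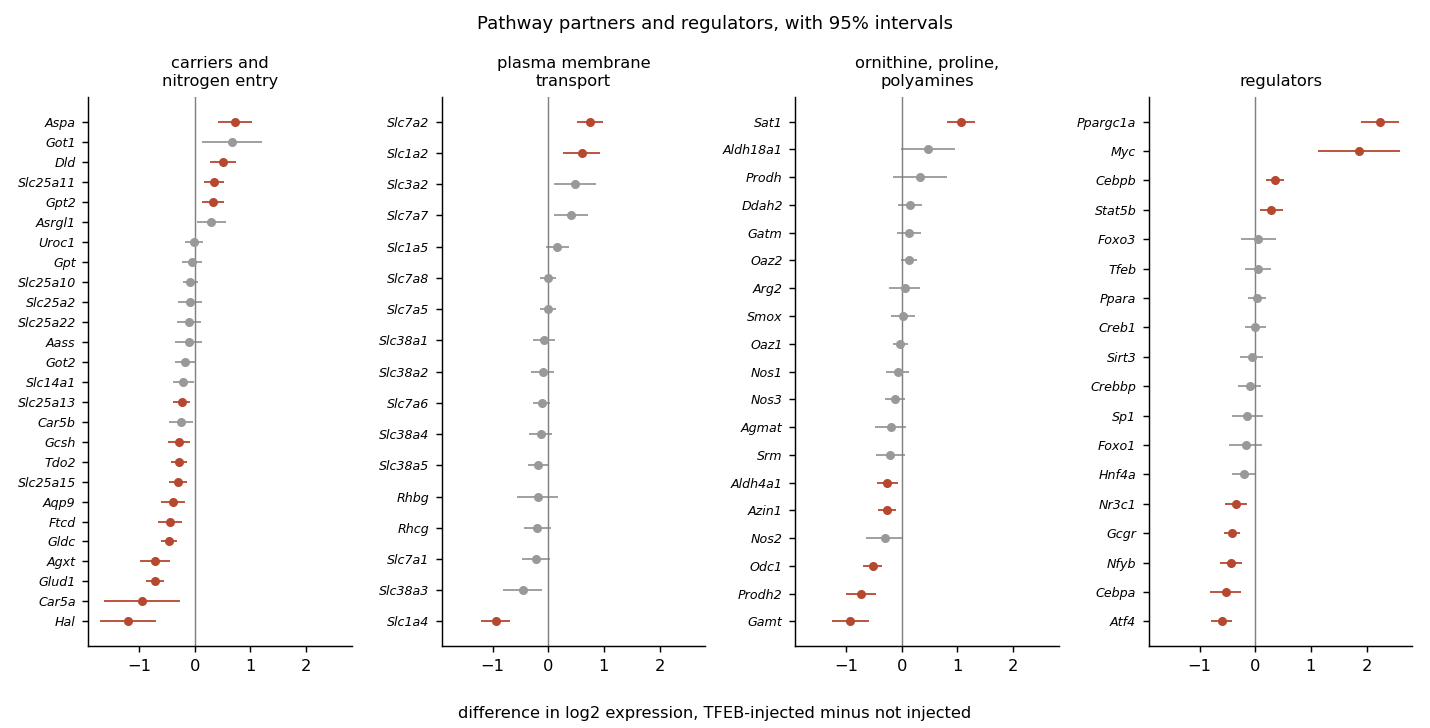
Differences in log2 expression, TFEB-injected minus not injected, with 95% intervals from limma for measured pathway partners and regulators, sorted within each panel and red where called. Falls outnumber rises among carriers and nitrogen entry (11 against 4), and Ppargc1a stands highest among the regulators (2.24).

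By pattern over the 6 arrays, the genes nearest to Nags were Txndc5, Hyou1 and Habp4, with Euclidean distances between centred log2 values of 0.05, 0.09 and 0.11. Txndc5 differed by -0.79, Hyou1 by -0.76 and Habp4 by -0.75. Txndc5 and Hyou1 encode proteins of the endoplasmic reticulum. Nags served for this as the called gene with the largest fall, and no gene of the 7 was called with a rise.

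Markers of other liver cells moved beside these differences. For each count of called markers below, 14.2% of all genes rose and 13.9% fell. Of 10 endothelial markers 5 rose and 0 fell, and their mean log2 level was 8.83 to 9.04 in injected and 8.33 to 8.46 in not-injected livers. Their median difference was 0.32, with Lyve1 at 2.10 and Tek at 0.01. The rises numbered 3 without injected replicate 1 or not-injected replicate 2 or 3, and 2 without variance moderation. Of 9 Kupffer cell markers 1 rose and 2 fell, with mean levels of 8.89 to 9.14 in injected and 9.01 to 9.44 in not-injected livers. Their median difference was 0.17, and Cd163, a scavenger receptor of macrophages, differed by -3.62. Kupffer cell rises numbered 4 without not-injected replicate 1 and 2 without injected replicate 3, and falls 1 without any single array except injected replicate 2. Of 10 stellate cell markers 0 rose and 1 fell, with 8.24 to 8.90 in injected and 8.32 to 8.37 in not-injected livers; without injected replicate 2, 5 rose. The 5 cholangiocyte markers gave 0 calls (limma; 2 at an unadjusted p under 0.05), and 2 rose without injected replicate 2. Of 9 lymphocyte markers 1 rose, of 6 neutrophil markers 1 rose, and of 3 erythroid and 8 muscle and kidney markers 1 each fell. Of 8 hepatocyte markers 1 rose and 2 fell, with 13.83 to 13.86 in injected and 14.07 to 14.11 in not-injected livers. Their median difference was -0.15, and the mean levels lean on Tat, which differed by -1.45, while Ttr differed by 0.02. Over all 15 alternatives 0 to 1 of the hepatocyte, 0 to 2 of the lymphocyte and 0 to 2 of the neutrophil markers rose, and 1 to 3 of the hepatocyte, 1 to 2 of the erythroid and 0 to 2 of the muscle and kidney markers fell. The values hold no true zero, so no marker could be called absent. The part of cell makeup in the results was not tested.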

How the data were processed

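The table holds log2 expression per probe set for 6 liver arrays, as the authors deposited it. The submitters' processing notes name the R package affy and RMA, with no version; filters are not given in the sources used here. RMA as commonly run equalises probe intensities between arrays, which can hide a common rise or fall of all transcripts; lower quartiles of the deposited values still ran from 5.54 to 5.64. Of 22690 probe sets, 64 were controls, and GEO's platform annotation gave 1 symbol to 20380, several to 691 and none to 1555. Each gene was read by the brightest of its probe sets, by the mean of the 6 arrays. limma 3.58.1 (R 4.3.3) with lmFit and eBayes was fitted over 12393 genes with no covariate and no filter, two-sided, with Benjamini-Hochberg adjustment and a threshold of 0.05; other probe sets come from a fit over all 20380. With 3 arrays per group a permutation test cannot go below p = 0.1. Precision is limited by how few arrays there are.

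The genes and lists were chosen with earlier results of these data known. Named were the measured genes, Tfeb, Hnf4a, Cebpa, Gcgr, Ppargc1a and, per list, up to 3 called genes with the smallest p in each direction; likeness used the 3 nearest genes to the called gene with the largest rise or fall. Genes singled out later are marked as such. Alternatives were a replicate block, a moderation that follows intensity or none at all, a filter at the median level, averaged probe sets or each on its own, further quantile normalisation, median centring, weights for arrays, and each array left out in turn.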

Additional observations from a re-analysis of the deposited data

How the results depend on the processing

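Over 15 alternatives Nags ranged from -0.84 to -0.73 and Arg1 from -0.79 to -0.60, both called in each. The number of called genes of the 7 was 2, or 3 with array weights, and 2 to 3 when single arrays were left out. Over all genes the count of 3486 became 1881 without moderation, 4707 with array weights and 1973 to 4378 when single arrays were left out, with 2103 without injected replicate 1, 1973 without not-injected replicate 2 and 2032 without not-injected replicate 3. Signs turned only in genes without a call: Asl without injected replicate 1 (0.11; -0.15 without injected replicate 2), Glul with the mean of its probe sets (-0.051) and Tfeb without injected replicate 2 (-0.051). Of 33 called genes named beside the 7, 21 kept their call under every alternative that gave a value, and 12 lost it under at least 1; none of them changed sign. The cause of these changes was not tested. The replicate number as a block gave 3348 called genes, and 2 of the 7, and of the calls of named genes it ended those of Slc25a13 and Car5a. The data do not settle whether the numbers pair the livers. Correlations of deviations between same-numbered arrays were 0.14, 0.06 and 0.01, and those between other arrays ran from -0.16 to 0.08. Injected replicates 1 and 2 correlated best with their own number and injected replicate 3 with another. With 3 arrays per group, the 95% interval of Cps1 spanned -0.41 to -0.03. No detection calls came with the values.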
